A study of Homo sapiens with 8 samples.

Results

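Untreated-state libraries of Kyse510, a human esophageal squamous cell carcinoma (ESCC) line, were compared between the 2 arms of one RNA-seq series. The vehicle library (labelled DMSO-con, its treatment field reading untreated) came from the inhibitor arm, which also holds cells given 7 μM SP2509, 7 μM UNC0642 or both for 2 days. The uninduced libraries (sh-LSD1-con and sh-G9a-con) came from the silencing arm and had received no doxycycline. Each carried a doxycycline-inducible hairpin against LSD1 or G9a in the lentiviral Tet-pLKO-puro vector, and puromycin had been used for 14 days to select stable cells. The other libraries of that arm were the same lines after 2 days of doxycycline. No hairpin or puromycin is stated for the vehicle cells, and neither a non-silencing hairpin library nor a library of unselected cells in the second table was analysed here, so vector, puromycin, culture, library preparation and table cannot be told apart. The series text speaks of clones and does not say how many founded each line. Members were the genes listed in both tables with at least 1 FPKM (fragments counted per gene, scaled by gene length and library depth) in vehicle or a line, which gave 13382 of the 26360 shared genes, 10858 of them protein-coding, in 3 of the 8 libraries.

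LSD1, encoded by KDM1A, removes methyl groups from lysine 4 and lysine 9 of histone H3, and G9a, encoded by EHMT2, methylates lysine 9. Both act mainly as parts of repressor complexes. Squamous esophageal cells are marked by basal keratins, desmosomal proteins and the transcription factors TP63 and SOX2. Hypoxia genes are induced through HIF factors and raise glycolysis, immediate early genes through growth factor signalling, and mitosis and replication genes are transcribed in cycling cells.

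The hairpins are shown because each line differs from the other by this sequence. The antisense arm is the strand that pairs with the mRNA, and capitals mark its bases 2 to 8, the seed, and the bases of the mRNA opposite the seed. The sequences are those listed in the study's supplement for the constructs it named as the origin of the inducible hairpins, and were located by exact match to GRCh38.
shLSD1 antisense arm: tATTCAGTttaatgtctaggc
KDM1A target: gcctagacattaaACTGAATa
shG9a antisense arm: aTCTTGTTaaattcctggagc
EHMT2 target: gctccaggaatttAACAAGAt
The KDM1A target of 21 bases lay at chr1:23077307-23077327 on the plus strand, in coding sequence of exon 16 of 21 of the canonical transcript. The EHMT2 target lay at chr6:31882978-31882998 on the minus strand, in coding sequence of exon 24 of 28. Each was found in transcripts of its own gene alone in GENCODE 44.

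The hairpin targets were read first in all libraries. KDM1A stood at 40.7 FPKM in vehicle, 26.0 in uninduced shLSD1 and 26.4 in uninduced shG9a. The shLSD1 line without doxycycline was therefore not below the shG9a line in KDM1A, with a log2 ratio of shG9a over shLSD1 of 0.02 and a 95% counting interval from -0.06 to 0.10. With doxycycline KDM1A was at 6.29 in shLSD1 and 35.8 in shG9a, and the inhibitor-treated libraries ranged from 32.0 to 40.3. The model of KDM1A did not match between the tables, as described below. EHMT2 was at 11.1 FPKM in vehicle, 8.0 in uninduced shLSD1 and 7.85 in uninduced shG9a. Again the line carrying the hairpin did not stand apart: its log2 ratio to the other line was -0.03, with an interval from -0.16 to 0.10. With doxycycline EHMT2 was at 4.76 in shG9a and 7.97 in shLSD1. It was at 10.2 with SP2509, 10.3 with UNC0642 and 5.38 with both.

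The reads behind the values, estimated from the steps of the FPKM values, totalled 15662035 in vehicle, 17754601 in shLSD1 and 16540175 in shG9a. There was 1 library per condition, so no difference here has a replicate check, no p-value was computed, and intervals cover counting error only. Of 10087 genes with at least 100 reads, 29.4% differed between the uninduced lines by more than counting error, against 5% that counting alone would give, so they were not a single library deposited under different names. The markers fit an epithelial line of squamous type: 26 of 28 squamous identity genes passed the filter, whereas no glandular marker did (8 listed in both tables, none above 0.532 FPKM in any of the 3 libraries). Among fibroblast markers COL1A1 alone passed (2.96, 4.82 and 4.79 FPKM in vehicle, shLSD1 and shG9a), and among leukocyte and endothelial markers CDH5 alone (3.28, 5.21 and 3.40). Summed over the 9 fibroblast markers listed in both tables the level was 4.57, 6.04 and 5.70 FPKM, and over the 9 leukocyte and endothelial markers 3.92, 6.57 and 4.57, with 5, 3 and 1 of the latter at 0.

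The uninduced lines lay close to each other and apart from vehicle. Differences are given as log2 of (FPKM + 1) in a line minus the same in vehicle, and a gene was called higher or lower where both lines were at least 2-fold from vehicle in the same direction. On this scale 743 of 13382 genes were higher (5.55%) and 1006 lower (7.52%) in both lines, and because both comparisons use the single vehicle library their sharing of genes is partly built in. Higher genes were 42.5% of these calls, but 54.3% when differences were centred on the median of all genes and 56.4% with TMM scaling. Between the lines 75 genes were at least 2-fold higher in shG9a (0.56%) and 95 lower (0.71%). Against vehicle singly, shLSD1 had 1032 genes higher (7.71%) and 1342 lower (10%), and shG9a 884 (6.61%) and 1205 (9%), and 2 genes (0.0149%) went in opposite directions. Read the same way for each library in turn, shLSD1 stood at least 2-fold above both other libraries in 47 genes (0.351%) and below both in 26 (0.194%), and shG9a in 35 (0.262%) and 31 (0.232%). Within 1.5-fold lay 96.6% of genes between the lines, 57.6% between vehicle and shLSD1 and 60.7% between vehicle and shG9a. Across genes, which are not independent replicates, Pearson's r of log2(FPKM + 1) was 0.99 between the lines, and 0.88 and 0.90 between vehicle and shLSD1 or shG9a.

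**Figure D1:**
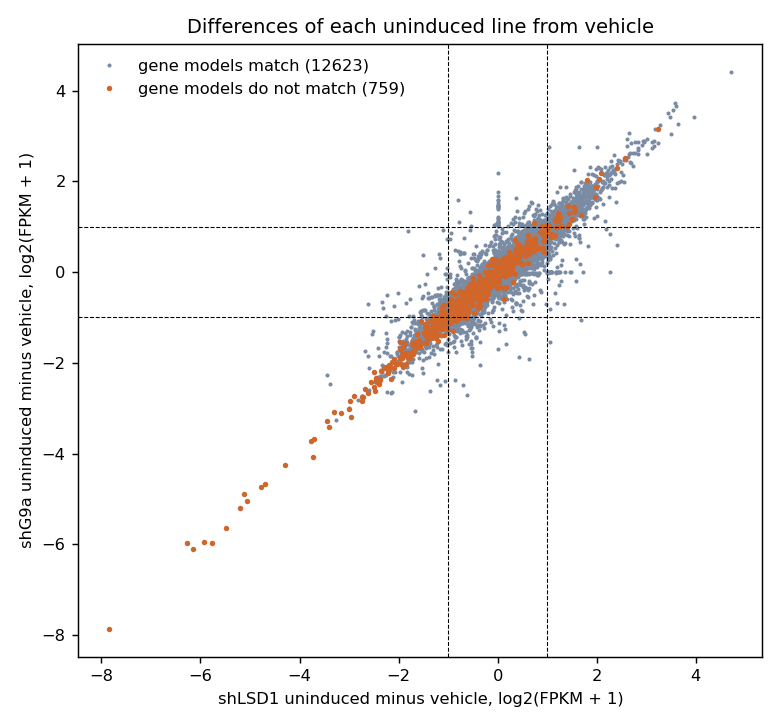
Each point is 1 gene past the filter, with its log2(FPKM + 1) difference from vehicle in uninduced shLSD1 (x axis) and uninduced shG9a (y axis); dashed lines mark a 2-fold difference and orange points are the 759 genes whose models did not match between the tables. Both axes share the vehicle library, and the points beyond -4 on both axes are orange.

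The largest deficits in the lines belonged to genes whose models were not the same in the 2 tables. The shRNA table held 241 genes with identifiers later than any in the inhibitor table and wrote its antisense class under another name, although the study's methods give release 87 of GRCh38 for all libraries. Genes were counted as having matching models where coordinates were equal, the lengths implied by the FPKM steps agreed within 1.1-fold, and no later gene overlapped them on the same strand. That held for 12623 genes. Among them 714 were higher (5.66%) and 834 lower (6.61%), whereas among the 759 others 29 were higher (3.82%) and 172 lower (22.7%). Between the lines the counts over matching models were again 75 (0.594%) and 95 (0.753%). Of the protein-coding genes at least 8-fold lower in both lines, 19 of 19 had models that did not match, and 18 overlapped a later gene.

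The 12 protein-coding genes ranked lowest were all of that kind. LDHB, a lactate dehydrogenase subunit, was at 288 FPKM in vehicle and 175 to 295 in the inhibitor-treated libraries, but at 0.26 and 0.24 in uninduced shLSD1 and shG9a and 0.19 and 0.37 after doxycycline. ALDOA, the glycolytic aldolase, was at 236 in vehicle against 3.34 and 2.78 in the lines. CDC42, a small GTPase, was at 101.3 against 0.69 and 0.66. All 4 libraries of one table lay below all 4 of the other for these genes, so the break lay between the tables, with and without treatment. PTP4A1, JTB, SLC39A1, NUSAP1, PRC1, GNG5, CHD4, NOP2 and RNASEH2A completed the list, between 19.4 and 94.6 FPKM in vehicle and at most 1.14 in either line. NUSAP1 and PRC1, mitotic spindle proteins, are among the mitosis genes counted below.

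Among genes with matching models, chosen for naming by the same rule after values were seen, the lower side held several genes of cell division. SRSF1, a splicing factor, was at 81.7 FPKM in vehicle and 11.4 in each line. KIF14, a mitotic kinesin, was at 13.1 against 1.64 and 1.85, and MKI67, the Ki-67 proliferation antigen, at 20.5 against 3.17 and 3.41. SMC4 (a condensin subunit), CENPF and CENPE (kinetochore proteins), ASPM (a spindle pole protein), ARHGAP11A, ARHGAP5, EXO1 (an exonuclease of mismatch repair), PRKDC (the DNA-dependent protein kinase) and TRAPPC6B made up the rest, with log2 differences from -2.35 to -2.08.

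The G2/M and mitosis list moved as a block. Of 30 members past the filter 26 were called lower, against 7.52% of all genes, none was called higher, and the median difference was -1.65 in shLSD1 and -1.63 in shG9a, against -0.13 over all genes in each line. Without members of non-matching models 23 of 27 were lower, with a median of -1.62 for the mean of the lines. TOP2A, the mitotic topoisomerase, was at 100.2 FPKM in vehicle, 30.7 in shLSD1 and 29.0 in shG9a. CCNB1, the mitotic cyclin, was at 54.3, 21.8 and 19.8, and FOXM1, a transcription factor of late cell cycle genes, at 19.5, 4.74 and 4.59. The 4 members not called, CENPA, CDC20, PTTG1 and UBE2C, were lower by less, with differences between -1.07 and -0.72. Mitosis genes were thus higher in vehicle than in the lines, though the other libraries bridged the gap for many. CENPF was at 5.89 FPKM with both inhibitors together, close to 5.56 and 5.79 in the lines. All shRNA-table libraries lay below all inhibitor-table libraries for 10 of the 26, a share near the 45.1% of all genes called lower.

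Replication genes followed. Of 29 members 22 were called lower (75.9%, against 7.52% of all genes) and none higher (against 5.55%). The medians were -1.37 in shLSD1 and -1.21 in shG9a, against -0.13 over all genes in each line. MCM2, a subunit of the replicative helicase, was at 47.0 FPKM in vehicle, 9.69 in shLSD1 and 12.4 in shG9a. RRM2, which supplies deoxynucleotides, was at 13.4, 1.85 and 2.49, and PCNA, the polymerase clamp, at 60.2, 22.9 and 28.3. CDT1 and CCNE1, which act at origin licensing and S phase entry, differed from vehicle by at most 0.10 in either direction. For 12 of the 22 the 8 libraries split by table, against 45.1% of all genes called lower. All 29 members had matching models, and over matching models that share was 39.1%. MCM2 was at 52.3 to 62.3 in the inhibitor-treated libraries and 13.6 and 15.9 in the induced ones.

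Promoter letters of the mitosis list are shown for MKI67 because many members share them. The 120 bases before its RefSeq start (GRCh38.p14, chr10:128126424-128126543, minus strand) carry in capitals each CCAAT or TTTGAA on either strand, the CCAAT box and the core of the cell cycle homology region; near the start a TTTGAA and an ATTGG, the reverse of CCAAT, overlap.
MKI67 promoter: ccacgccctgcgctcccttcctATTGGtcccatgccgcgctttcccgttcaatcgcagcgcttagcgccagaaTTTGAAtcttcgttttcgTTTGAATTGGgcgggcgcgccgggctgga
In the 250 bases before the start, CCAAT was present in 21 of 24 mitosis list promoters (87.5%) and TTTGAA in 13 (54.2%), against 35.4% and 8.27% of the 8848 promoters matched by symbol to genes past the filter. Replication list promoters held CCAAT in 64% and TTTGAA in 4%. These counts describe the list and would be the same in any comparison of it.

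Ribosome biogenesis genes were lower while ribosomal protein genes were higher. Of 25 biogenesis genes 9 were called lower (36%, against 7.52% of all genes) and 1, PPAN, higher, with medians of -0.91 and -0.79. Over matching models 8 of 23 were lower. NOLC1, a nucleolar phosphoprotein, was at 88.3 FPKM in vehicle, 27.7 in shLSD1 and 34.8 in shG9a, and POLR1A, the large subunit of RNA polymerase I, at 15.8, 4.34 and 4.98. NPM1 and FBL, abundant nucleolar proteins, lay within 0.20 of vehicle. Of 78 cytosolic ribosomal proteins 70 had a higher mean of the lines, 12 of them called higher (15.4%, against 5.55% of all genes), with medians of 0.63 and 0.60. RPS12 was at 692 FPKM in vehicle and 1784 and 1690 in the lines. All 12 higher members were above the inhibitor-table libraries in all 4 shRNA-table libraries, against 43.7% of all genes called higher. The offset was thus present with and without doxycycline. The list also had 2 members called lower (2.56%), RPL22 among them, both with models that did not match, and reads of ribosomal protein genes can be shared with their many pseudogenes.

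**Figure D2:**
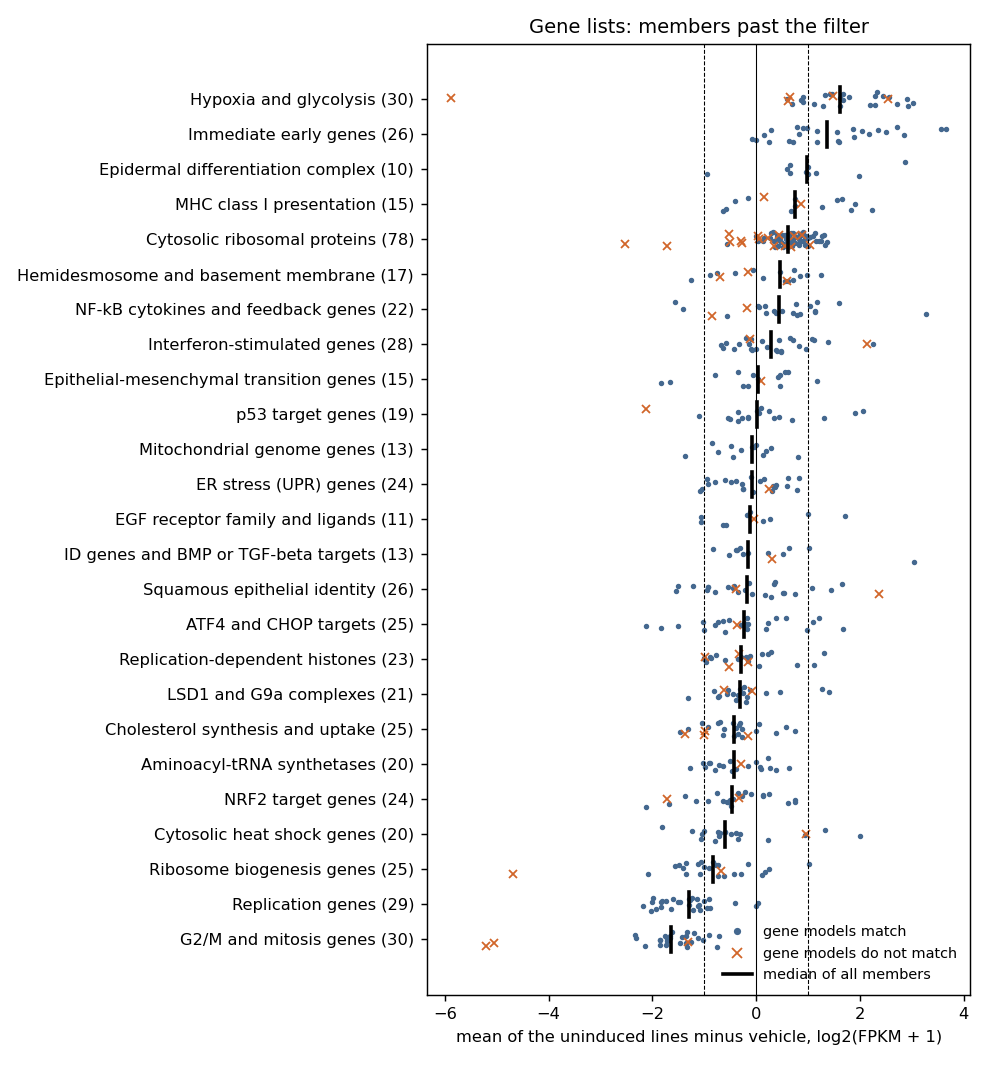
Each symbol is 1 member of a gene list, placed by the mean log2(FPKM + 1) difference of the uninduced lines from vehicle (x axis), for lists with at least 10 members past the filter (number in brackets); bars are medians, orange crosses are genes whose models did not match and dashed lines mark a 2-fold difference. Hypoxia and immediate early genes lie highest, with medians of 1.61 and 1.36, and replication and mitosis genes lowest, at -1.29 and -1.64.

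On the higher side, hypoxia and glycolysis genes stood out in both lines. Of 30 members past the filter 22 were called higher, against 5.55% of all genes, and the median difference was 1.65 in shLSD1 and 1.57 in shG9a. Over matching models 20 of 25 were higher. ALDOA, one of the genes whose models did not match, was the sole member lower. CA9, a carbonic anhydrase induced by low oxygen, was at 12.1 FPKM in vehicle, 115 in shLSD1 and 95.9 in shG9a. EGLN3, a prolyl hydroxylase that senses oxygen, was at 13.6, 111 and 107, and NDRG1, a stress-inducible gene, at 45.4, 359 and 336. ANGPTL4, a secreted inhibitor of lipoprotein lipase, was at 0.39 FPKM in vehicle, from 15 estimated reads, and at 14.5 and 13.9 in the lines. Glycolytic enzymes were higher by less, such as LDHA at 91.7, 241 and 212 and PKM at 157, 242 and 233.

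In the other libraries these genes did not divide by arm. CA9 was at 16.8 FPKM in induced shLSD1 and 4.74 in induced shG9a, near or below vehicle, and at 66.2 to 87.2 in the 3 inhibitor-treated libraries. EGLN3 was at 16.5 and 4.94 after doxycycline and 14.7 to 41.2 with inhibitors. No called member of the list was above the inhibitor table in all 4 shRNA-table libraries, against 43.7% of all genes called higher. The median level of the list was 24.9 FPKM in vehicle, 47.2 to 58.6 with inhibitors, 85.7 and 79.1 in the uninduced lines and 21.3 and 13 after doxycycline. Vehicle was thus the lowest library of its table, and the uninduced lines were the highest of theirs. CA9 has the letters ACGTG, core of the hypoxia response element, on the minus strand, with its first base 18 bases before its RefSeq start (GRCh38.p14, chr9:35673808-35673927, plus strand), in capitals here.
CA9 promoter: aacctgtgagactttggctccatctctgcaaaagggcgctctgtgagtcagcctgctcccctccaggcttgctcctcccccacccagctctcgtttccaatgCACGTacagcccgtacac
ACGTG or GCGTG on either strand was present in 18 of 27 promoters of the list (66.7%), against 58.3% of promoters of genes past the filter. Taken singly, ACGTG was in 44.4% of the list against 24.1%, and GCGTG in 37% against 46.1%. These counts describe the list.

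Immediate early genes, which respond to serum and growth factors within minutes, had the same layout. Of 26 past the filter 15 were called higher (57.7%, against 5.55% of all genes) and none lower (against 7.52%). The medians were 1.37 and 1.32, against -0.13 over all genes in each line. FOS, part of the AP-1 transcription factor, was at 6.11 FPKM in vehicle, 82.3 in shLSD1 and 83.4 in shG9a, at 26.9 to 29.8 with inhibitors and at 5.96 and 2.60 after doxycycline. CTGF, a matricellular target of YAP, was at 5.90, 81.2 and 90.3 in the same order of baselines and reached 277 with SP2509. DUSP1, a phosphatase that ends MAP kinase signalling, was at 4.52, 32.9 and 37.1. PHLDA1, SPRY2 and DUSP6 were within 0.39 of vehicle in both lines. No member called higher separated the tables in all 8 libraries, against 43.7% of all genes called higher.

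Antigen presentation genes were higher too, and more of this difference stayed with the table than for hypoxia and immediate early genes. CD74, the invariant chain of MHC class II, had the largest difference on the higher side: 0.82 FPKM in vehicle (41 estimated reads), 47.0 in shLSD1 and 37.8 in shG9a. HLA-DRA, the class II alpha chain, was at 0.40 (8 estimated reads), 20.9 and 13.9. CD74 ranged from 0.41 to 3.25 with inhibitors and was at 84.8 and 15 after doxycycline, so all shRNA-table libraries lay above all inhibitor-table libraries. Of 15 MHC class I genes 6 were called higher (40%, against 5.55% of all genes) and none lower (against 7.52%). Among the 6 were HLA-B, HLA-C and the immunoproteasome subunit PSMB9. HLA-B was at 15.9 FPKM in vehicle, 80.9 in shLSD1 and 74.8 in shG9a. Of the 6, 4 separated the tables in all 8 libraries, against 43.7% of all genes called higher. HLA genes are polymorphic and similar in sequence, so reads may be divided between them. NLRC5 and TAP2, regulator and peptide transporter of the same pathway, were slightly lower in the lines, by differences between -0.70 and -0.39. Of 28 interferon-stimulated genes 5 were called higher, IFI6, IFIT2, BST2, ISG15 and OASL (17.9%, against 5.55% of all genes), and none lower, with medians of 0.32 and 0.21. Over matching models 4 of 26 were higher.

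Other genes named on the higher side encode secreted or surface proteins. LCN2, the siderophore-binding lipocalin, was at 118 FPKM in vehicle, 1166 in shLSD1 and 1127 in shG9a. It stayed at 964 in induced shLSD1, was at 52.6 in induced shG9a and ranged from 52.3 to 199.8 with inhibitors. EDN2, an endothelin, was at 5.38, 68.7 and 71.6, and remained above the inhibitor table (3.07 to 5.38) after doxycycline at 17.9 and 14.3. CEL, a bile salt lipase, was at 13.2, 159.9 and 116, and TNFRSF14, a receptor of the TNF family, at 0.48, 11.1 and 10.4. PDZK1IP1, a membrane protein of carcinomas, and IZUMO4 were at 1.29 and 1.13 FPKM in vehicle and between 19.5 and 25.5 in the lines. NBL1, a BMP antagonist, was at 0.37, 11.9 and 11.1, with models that did not match. CEL, PDZK1IP1 and IZUMO4 did not divide by arm in the other libraries. Induced shG9a had 13.6, 8.27 and 1.17 FPKM of them, against 19.3 of CEL with UNC0642, 10.2 of PDZK1IP1 with SP2509 and 2.52 of IZUMO4 with UNC0642. TNFRSF14 and NBL1 stayed above all inhibitor-table libraries after doxycycline.

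**Figure D3:**
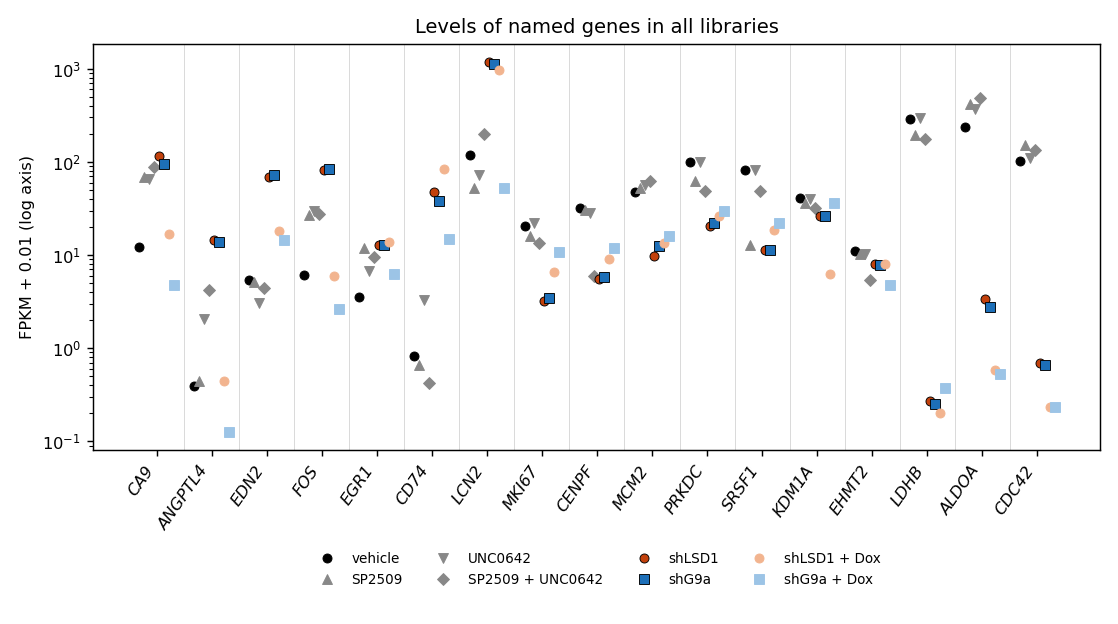
FPKM + 0.01 (log axis) of named genes in all 8 libraries: black, vehicle; grey, inhibitor-treated; dark orange and dark blue with black edges, uninduced shLSD1 and shG9a; pale symbols, the same lines with doxycycline. The uninduced lines lie close to each other in each gene; in CA9, ANGPTL4 and FOS the induced lines fall near or below vehicle, whereas in LDHB, ALDOA and CDC42 all 4 libraries of the shRNA table lie below the others.

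Squamous markers were expressed in all 3 libraries, with differences both ways among keratins. The median for the mean of the lines was -0.18 over 26 members, against -0.13 over all genes. Called were 3 members higher and 3 lower (11.5% each way, against 5.55% and 7.52% of all genes). KRT5, the basal keratin, was at 427 FPKM in vehicle, 188 in shLSD1 and 177 in shG9a. KRT13 was at 23.3, 8.16 and 7.08, and SOX2 at 18.3, 5.24 and 5.99. KRT15, another basal keratin, was at 151, 439 and 389, and KRT16 at 3.25, 12.5 and 12.3. KRT17 was at 324, 1738 and 1596, with models that did not match. TP63 was at 79.1, 41.9 and 40.5, short of 2-fold on the scale used. Of the differentiation complex IVL (involucrin) and S100A9 were called higher among 10 members (20%, against 5.55% of all genes), and none lower. S100A9 was at 3.98, 30.4 and 40.7. The medians of the differentiation complex were 0.95 in shLSD1 and 0.94 in shG9a, and 9 of the 10 had a higher mean of the lines.

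Members of the LSD1 and G9a complexes were mostly a little lower in the lines, with medians of -0.32 and -0.30 over 21 genes. The median over all genes was -0.13 in each line. The list median of the mean of the lines, -0.31, became -0.22 when centred on the median of all genes and -0.18 with TMM scaling. SUV39H2, another lysine 9 methyltransferase, was the only one called lower (4.76%, against 7.52% of all genes), at 4.39, 1.23 and 1.1 FPKM. RCOR2 and HMG20B, partners of LSD1, were called higher (9.52%, against 5.55% of all genes), at 2.80, 9.40 and 8.74 and at 13.6, 34.9 and 33.2. RCOR1, the main LSD1 corepressor, was at 19.3, 10.6 and 10.5 and was below the inhibitor table in all 4 shRNA-table libraries.

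Stress and metabolic lists moved less. Unfolded protein response genes, a pathway the study examined, had medians of -0.21 and 0.04; the median of the mean of the lines, -0.08, became 0.01 when centred on the median of all genes and 0.05 with TMM scaling. The calls were no more frequent than over all genes: 1 of 24 was lower (4.17%, against 7.52%) and none higher (against 5.55%). The gene called was EIF2AK3, the PERK kinase, at 8.21 FPKM in vehicle, 3.22 and 3.53 in the lines. HSPA5, the lumenal chaperone BiP, was at 1462, 1195 and 1551, far above its levels with inhibitors (251 to 627) or doxycycline (404 and 102). HERPUD1 was at 121, 55.8 and 69.1. For the lists that follow, the shares of all genes called were 5.55% higher and 7.52% lower. NRF2 targets had 5 of 24 called lower (20.8%) and none higher, with 4 of 22 lower over matching models. Among those lower were SLC7A11, the cystine transporter (48.9, 8.46 and 12.8), and GCLC, of glutathione synthesis (77.9, 19.0 and 29.2). Cytosolic heat shock genes had 3 of 20 lower (15%), led by HSP90AA1 (291, 79.9 and 83.4), and 2 higher, HSPA1A (7.35, 32.8 and 32.0) and HSPB1. Among p53 targets 3 of 19 were higher (15.8%), CDKN1A (10.8, 41.3 and 45.3), GDF15 and PHLDA3, and TIGAR, with a non-matching model, was lower.

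The remaining lists had between 0 and 7 calls each, against the same shares of 5.55% higher and 7.52% lower over all genes. NF-kB cytokines and feedback genes had 4 of 22 higher (18.2%), with TNFAIP3 (27.9, 86.6 and 85.5 FPKM) and LCN2, and 2 lower, the chemokines CXCL2 and CXCL3. ATF4 and CHOP targets had 3 of 25 higher (12%), with DDIT4 (136, 417 and 459), and 4 lower (16%), with PSAT1 of serine synthesis (327, 108 and 121). Cholesterol genes had 3 of 25 lower (12%), among them HMGCS1, and 2 of 21 over matching models. Aminoacyl-tRNA synthetases had 2 of 20 lower (10%), FARSB and EPRS. Of epithelial-mesenchymal transition genes LGALS1 was higher and CDH2, the neuronal cadherin (4.53, 0.69 and 0.79), and COL12A1 lower among 15. Among 17 hemidesmosome and basement membrane genes LAMB3 was higher and FERMT1 lower, and among 11 EGF receptor family genes and ligands ERRFI1 was higher and NRG1 lower. Of 23 replication-dependent histones 2 were higher, HIST1H1C and HIST3H2A, and of 5 other RNAs without a poly(A) tail 1 was higher and 2 were lower. Drug efflux transporters had 2 of 7 lower (28.6%), and 1 of 5 over matching models. ID or BMP targets had 1 of 13 higher, while no gene was called among 6 metallothionein and zinc genes or 6 genes of the 11q13 block.

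The most abundant transcripts did not all differ between the arms. FTL, the ferritin light chain, was the highest protein-coding gene outside the mitochondrial genome, at 6826, 7029 and 7994 FPKM, with log2 differences of 0.04 and 0.23 from vehicle. HSPA5, given above, had -0.29 and 0.09. EEF1A1 was at 1793, 2480 and 2467, GAPDH at 955, 1834 and 1737, and ACTG1, an actin, at 744, 1795 and 1674. GAPDH and ACTG1, commonly used as references, were therefore near or past 2-fold apart between the arms at baseline.

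Differences past 2-fold between the lines were few, and 96.6% of genes lay within 1.5-fold. Smaller differences were common, as 29.4% of 10087 genes with at least 100 reads differed by more than counting error. Of the 170 genes past 2-fold, 1 was protein-coding: CES1, a carboxylesterase, at 3.05 FPKM in shLSD1, 7.23 in shG9a and 4.50 in vehicle. By size FAM96B (33.3 and 61.2), C10orf99, CAPNS2, AKR1B10 (21.3 and 33.4) and ZNF232 came next on the shG9a side, and RASL11A (6.73 and 3.5), NDUFAF8, HLA-DRA, C20orf24, INAFM1 and LOXL4 on the shLSD1 side, all within a log2 difference of 0.86. Lists leaned together in places: all 24 unfolded protein response genes and all 25 cholesterol genes were higher in shG9a, with median differences of 0.19 and 0.15, and 28 of 30 hypoxia genes were lower, with a median of -0.10. Over all genes that median was below 0.01, with 6860 of 13382 higher in shG9a and 6461 lower. These shifts rest on 1 library each, and members of a list are not independent of each other.

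The 5 libraries that the call did not use were read for the same genes. Both induced libraries lay above all 3 inhibitor-treated libraries for 336 of the 743 genes called higher (45.2%), against 27.1% of all genes. They lay below them for 471 of the 1006 called lower (46.8%), against 18.1% of all genes, and for 129 of the 172 of non-matching models (75%). With the baselines included, 325 (43.7%) and 454 (45.1%) split the 8 libraries by table, against 14.1% and 11.1% of all genes. The baselines chose the called genes, so their shares over all 8 libraries are raised by that choice. The arms differ in treatment as well as in table, so these shares describe the libraries.

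Differences also moved with base composition. Genes with matching models and at least 5 FPKM in all 3 libraries were used for bins and chromosomes. The lowest of 5 bins of GC content (30.7% to 40.5%) had medians of -0.38 in shLSD1 and -0.35 in shG9a, and the highest (57.9% to 81.0%) 0.39 in each. Between the lines the same bins differed by 0.03 and by -0.003. Chromosome 19, with a median GC content of 59.6%, had medians of 0.36 and 0.38, and chromosome 18, at 41.8%, -0.34 and -0.29. Length moved the other way, from 0.17 and 0.16 in the shortest bin to -0.33 and -0.30 in the longest. Centred within 20 bins of GC content, the medians of the main lists stayed on their side, at 1.84 for hypoxia, 1.24 for immediate early, 0.73 for ribosomal protein, -1.18 for replication and -1.31 for mitosis genes. What part of any one gene's difference goes with composition was not tested.

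**Figure D4:**
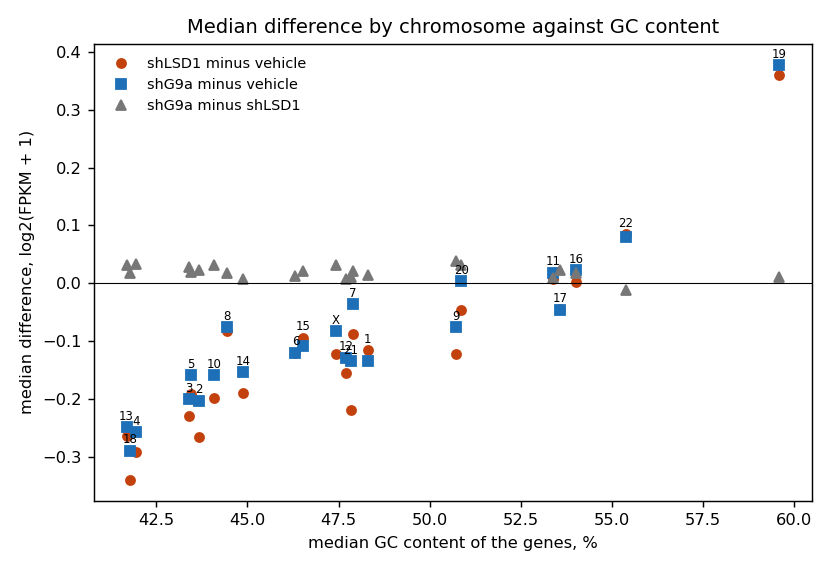
Median log2(FPKM + 1) difference (y axis) against the median GC content of the genes in percent (x axis) for each chromosome. Genes had matching models and at least 5 FPKM in vehicle and both lines. Circles are shLSD1 minus vehicle, squares shG9a minus vehicle and triangles shG9a minus shLSD1. Line minus vehicle runs from chromosome 18 (-0.34 and -0.29) up to chromosome 19 (0.36 and 0.38), while shG9a minus shLSD1 stays near 0.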

How the data were processed

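Total RNA was sequenced as paired 150-base reads, mapped by the authors to GRCh38 (release 87 in the methods); the aligner and counter are not given in the sources used here, nor is strandedness. The authors deposited FPKM per gene in 2 tables of 4 libraries, made separately. These were joined on gene ID and kept as deposited. Members and the 32 gene lists were chosen with earlier results of these data known. Named genes are, by rule, the 12 protein-coding genes per direction with the largest smaller difference of the lines and at least 5 FPKM in the higher libraries, 6 per direction between lines, the 10 with highest mean FPKM, the targets and list members; some are not reported here. Library totals were estimated from single-exon genes, and lengths as the smallest giving whole reads (99.5% to 99.7% of the totals were assigned). Counting intervals are 95% and exact. Functions were tested on simulated data. GC content and positions came from GENCODE 44, promoters from RefSeq (GRCh38.p14). Python 3.11.15, numpy 2.4.6, pandas 2.3.3 and scipy 1.17.1 were used.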

Additional observations from a re-analysis of the deposited data

Results flagged for a closer look

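MIR3677 was higher in uninduced shLSD1 than in vehicle by a log2 difference of 1.68 and lower in shG9a, at -1.05. MIR6730 had 1.06 and -1.54. Each rests on at most 6 estimated reads in a library (MIR3677: 1, 6 and 0 in vehicle, shLSD1 and shG9a), and the difference between the lines was not tested. A further 120 genes with at least 1 FPKM in vehicle were listed in the inhibitor table alone, led by SNORD63B and TBCE, a tubulin-folding cofactor at 32.1 FPKM, and 61 with at least 1 FPKM in a line were listed in the shRNA table alone, among them PYURF at 24.5 and 28.0. These genes entered no comparison.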

How the results depend on the processing

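Medians of 5 lists changed sign: unfolded protein response genes from -0.08 to 0.01 when centred on the median, 0.05 with TMM and 0.11 within GC bins, and mitochondrial genome genes from -0.08 to 0.02, 0.06 and 0.19. ID or BMP targets went from -0.15 to 0.02 within GC bins, p53 targets from 0.02 to -0.06 and epithelial-mesenchymal transition genes from 0.03 to -0.06 when rescaled to the sum of FPKM, and the last to -0.01 over matching models. With a pseudocount of 0.1 FPKM, 1306 genes were higher and 1758 lower in both lines, and 243 higher and 290 lower in shG9a than in shLSD1. A fold of 1.5 gave 1836, 2844, 198 and 262 in that order, and a fold of 4 gave 86, 87, 4 and 7. A filter of 5 FPKM left 10 and 16 between the lines, and protein-coding genes alone left 1 and 0. Centring within GC bins, an alternative added after seeing the data, gave 653 lower. Leaving out shLSD1 or shG9a gave 884 to 1032 higher and 1205 to 1342 lower. The share of calls that were higher crossed 50%: it was 42.5%, 54.3% when centred on the median, 56.4% with TMM, 33.9% when rescaled to the sum of FPKM, 50.4% within GC bins and 46.1% over matching models, also added later. TMM moved vehicle differences by 0.13 in shLSD1 and 0.15 in shG9a relative to unscaled values. No paired analysis was possible because each condition has 1 library.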

Other observations

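Class II genes outside the lists, named after their values were seen, went with CD74. HLA-DQB1 was at 2.41 FPKM in vehicle, 28.6 in shLSD1 and 21.6 in shG9a, and HLA-DMA, which loads peptide, at 0.96, 6.33 and 4.72. HLA-DQB1 was at 40.8 and 11.8 after doxycycline and 4.70 to 7.66 with inhibitors. H19, an imprinted noncoding RNA, was at 207, 497 and 483, with models that did not match. Of the mitochondrial genome MT-ND4L alone of 13 genes was called lower (3679, 1426 and 1430.1 FPKM), and MT-ND6, encoded on the light strand, was at 1388, 2493 and 2376; the sign of the list median changes with scaling. ABCG2, a drug efflux pump, was at 7.76, 0.97 and 1.43.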
